A study of Homo sapiens with 12 samples.

Results

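The 33 genes described here encode the enzymes that build purine and pyrimidine nucleotides in human cells. They were taken by gene symbol, and 1 array feature stood for each gene, the one with the highest mean log2 intensity over all 12 arrays. All 33 were found, on 38 features of the 45033 on the array, among 17185 genes that could be named. The RNA was that of HCT116, a cell line from a human colon carcinoma, in a p53+/+ form with wild-type p53 and a p53-/- form that lacks active p53. Each form was treated with Inauhzin (INZ), a small molecule that activates p53, at 4 μM or with the vehicle DMSO, and was harvested after 18 hours. The 4 groups are thus p53+/+ DMSO, p53+/+ INZ, p53-/- DMSO and p53-/- INZ, with 3 arrays each from what the labels call biological replicates. The number of clones behind the p53-/- line is not given in the sources used here, so a difference between genotypes is a difference between these 2 lines. The comparisons ask what INZ does to the nucleotide genes in each genotype, whether the genotypes differ in that effect, and how they differ under each treatment.

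Purine synthesis starts from PRPP, an activated ribose phosphate on which the ring is built step by step up to IMP, the branch point to AMP and GMP. Pyrimidine synthesis makes the ring first and joins PRPP to it later, giving UMP and then CTP. Ribonucleotide reductase turns ribonucleotides into deoxyribonucleotides for DNA, thymidylate is made in its own step, and salvage enzymes recover bases and nucleosides. Many of these genes are transcribed most in proliferating cells, where MYC and E2F factors are known to act on them, and RRM2B is a textbook target of p53.

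Values are log2 intensities after RMA, a procedure that removes background, brings the arrays to a common scale and combines the probes of each feature. A log2 difference of 1 is a doubling of intensity, and levels of different genes are not compared because each depends on its own probes. Each fold change comes from limma, which fits 1 mean per group over all 12 arrays, and is given with its 95% interval and a p adjusted over all 45033 features. A gene is said to have risen or fallen only where this adjusted p was under 0.05. In RNA from a whole culture, a smaller share of cells that express a gene and less RNA per cell cannot be told apart. With 3 arrays against 3, an exact two-sided permutation test cannot go below p = 0.1, so groups that do not overlap are a description.

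CDKN1A, the p53 target that arrests the cell cycle, went from a mean of 13.05 to 14.90 with INZ in p53+/+ cells and from 12.62 to 12.15 in p53-/- cells. Of 12 markers of colon epithelium, 6 were above the median feature (6.41), EPCAM, KRT8, KRT18, KRT19, CDH1 and CDX2, whereas KRT20, CDX1, VIL1, LGALS4, CEACAM5 and CDH17 were below it. All 6 leukocyte markers and 5 of 6 fibroblast markers were below it too, and COL1A1 was above. The p53+/+ DMSO replicate 1 array and the p53+/+ INZ replicate 3 array stood apart from the others of their groups, with fitted array weights of 0.305 and 0.373, against 0.871 to 2.53 for the other 10 arrays.

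By their means over the 12 arrays, 6.49 to 14.59, all 33 members lay above the median feature. The group means of RRM2B with DMSO (6.23 and 5.70) and of ADSS2 in p53+/+ cells (6.15 and 6.04) lay below it, so differences of these 2 genes start from dim levels and may understate the change. With INZ, the clearest change was in DTYMK, thymidylate kinase, which fell 2.26-fold in p53-/- cells and was the only member to pass the test in any of 5 comparisons. In p53+/+ cells 0 of 33 members passed, where 0.862% of all features did. For p53-/- cells the count was 1 of 33 (3.03%), where 1.48% of all features passed and 0.997% fell. At an unadjusted p under 0.05, limma counted 6 members (18.2%) in p53+/+ cells, against 14.4% of all features, and 7 (21.2%) in p53-/- cells, against 13.6%. A fit of only the features above the median feature counted 4473 and 4434 of 22516, a larger share than over all features. The median log2 fold change of the members with INZ was -0.01 in p53+/+ cells and 0.02 in p53-/- cells, and that of all features was -0.03 in both. Nucleotide synthesis genes as a group were therefore near the level of the whole array, and what follows concerns single genes.

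**Figure D1:**
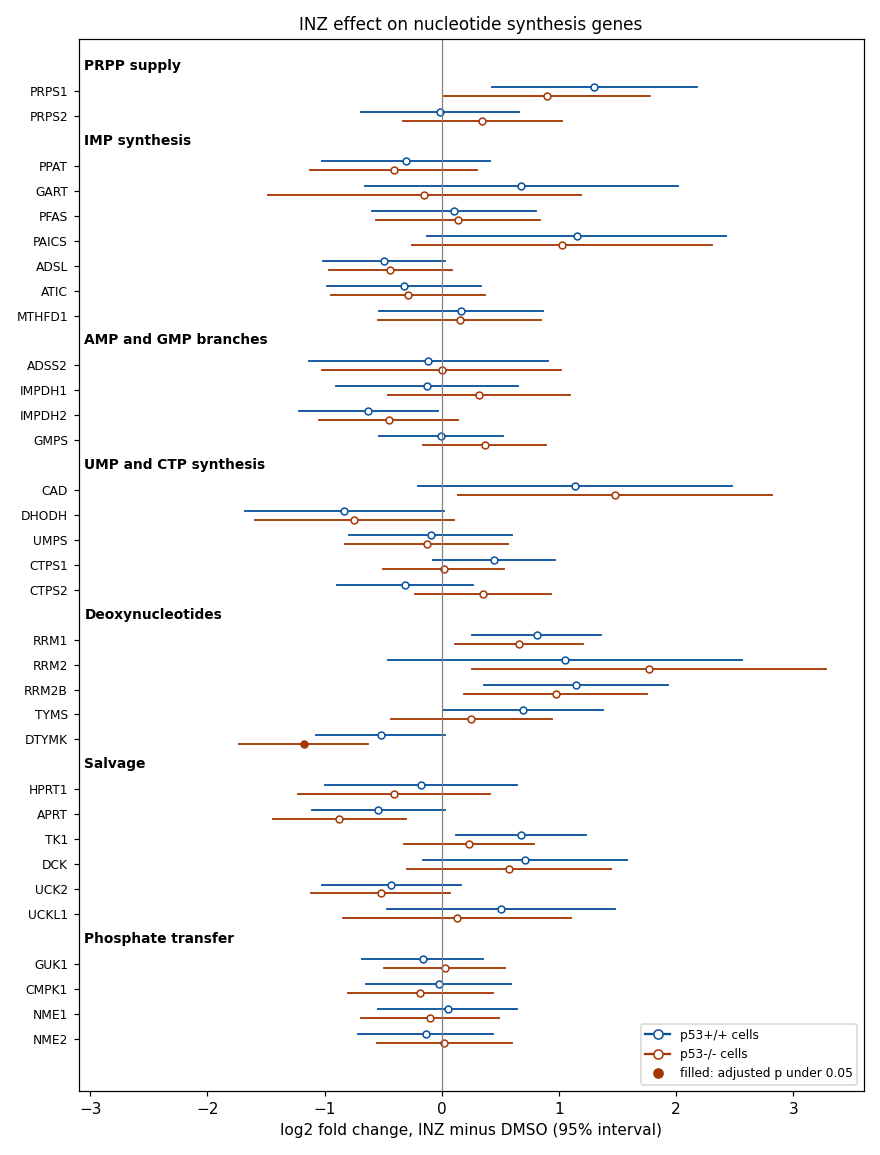
Log2 fold change of RMA intensity with INZ over DMSO (x axis) for the 33 genes (y axis, by role) in p53+/+ and p53-/- cells. Points are limma estimates, lines are 95% intervals, and DTYMK in p53-/- cells is the only filled point, at -1.18.

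Of the 5 genes for deoxynucleotides, 1 passed the test. DTYMK phosphorylates thymidylate to dTDP, the step that both the de novo and the salvage route to dTTP share. With p53-/- cells DTYMK read 12.34, 12.16 and 12.12 with DMSO and 11.25, 11.15 and 10.69 with INZ. In p53+/+ cells it read 12.01, 12.12 and 12.10 with DMSO and 11.77, 11.61 and 11.28 with INZ. In both genotypes each INZ array lay below each DMSO array, and the p53-/- INZ arrays were the lowest of all 12. The fall in p53-/- cells was 1.18 on the log2 scale (interval -1.73 to -0.63), with an adjusted p of 0.0366. In p53+/+ cells the log2 difference was -0.52 (interval -1.07 to 0.03) and the adjusted p was 0.375. The difference between both effects was 0.65 (interval -0.12 to 1.43) and missed the test.

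The DTYMK call was close to the threshold. It was lost when any 1 of the 6 p53-/- arrays was left out (adjusted p 0.0759 to 0.181, log2 fold change -1.29 to -1.01) or p53+/+ DMSO replicate 2 was (0.051). It was lost too when the fit took in each array's lower quartile (-1.04 on the log2 scale, adjusted p 0.115). That quartile was an intensity of 44.2 to 45.1 on the p53-/- INZ arrays and 45.9 to 46.6 on the p53-/- DMSO arrays, without overlap. On the p53+/+ DMSO arrays it was 46.7 to 49.5, apart from the p53-/- DMSO arrays too. For every gene below, a fit with this quartile therefore cannot tell it apart from INZ in p53-/- cells, nor from genotype with DMSO. Over all 24 alternatives the adjusted p ranged from 0.00647 to 0.181, and DTYMK was lower with INZ in each. Alternatives that leave out only p53+/+ arrays, or change only the variance estimate or the threshold, cannot alter its log2 fold change in p53-/- cells. In those its direction was fixed in advance.

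The promoter of DTYMK is shown because this gene carries the one call. The line gives 100 bases up to its start site from RefSeq, at chr2:241686816-241686915 of GRCh38.p14, minus strand, 5′ to 3′, with the letters CCAAT in capitals where they occur.
DTYMK: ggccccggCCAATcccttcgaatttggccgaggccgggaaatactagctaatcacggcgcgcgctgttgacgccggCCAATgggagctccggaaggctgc
CCAAT occurs 2 times in this stretch. On either strand, CCAAT was found in 31.8% of the 44 promoter windows of the members and in 34.6% of 35116 windows in the RefSeq table, so it is as common here as elsewhere. A match of letters is a description, not a binding site.

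RRM1 encodes the large, catalytic subunit of ribonucleotide reductase. It read 11.05, 10.71 and 10.98 in p53+/+ DMSO cells and 11.73, 11.77 and 11.67 with INZ. The p53-/- readings were 11.28, 10.95 and 11.51 with DMSO and 11.87, 12.13 and 11.72 with INZ. All INZ arrays were above all DMSO arrays in both genotypes, and the INZ values of p53+/+ cells lay close together. The log2 differences were 0.81 (interval 0.26 to 1.36, adjusted p 0.171) and 0.66 (interval 0.11 to 1.21, adjusted p 0.256). Neither passed the test in any alternative at the same threshold.

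RRM2B encodes the small subunit that p53 is known to induce for DNA repair. It read 5.88, 6.31 and 6.51 in p53+/+ DMSO cells and 7.67, 6.84 and 7.61 with INZ. Its p53-/- readings were 5.18, 5.50 and 6.42 with DMSO and 6.71, 7.03 and 6.27 with INZ. The groups did not overlap in p53+/+ cells, and overlapped in p53-/- cells through replicate 3 of each group. Its log2 difference was 1.15 (interval 0.36 to 1.93, adjusted p 0.176) in p53+/+ cells and 0.97 (interval 0.19 to 1.75, adjusted p 0.241) in p53-/- cells. The difference between both, 0.17 with an interval of -0.93 to 1.28, holds effects of either sign, so these arrays do not show whether the genotypes differ for RRM2B. With array weights, the value in p53-/- cells passed the test at an adjusted p of 0.0449.

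RRM2, the small subunit used in S phase, had the highest SD within groups of the 33 members (1.08 on the log2 scale). It read 6.87, 7.17 and 7.37 in p53+/+ DMSO cells and 7.72, 6.46 and 10.39 with INZ. Readings in p53-/- cells were 8.89, 8.23 and 9.43 with DMSO and 10.12, 10.64 and 11.10 with INZ. Only p53+/+ INZ replicate 3, 1 of the arrays that stand apart, brought the p53+/+ cells into the range of the p53-/- cells. In p53-/- cells the log2 difference with INZ was 1.77 (interval 0.26 to 3.28, adjusted p 0.277), against 1.05 (interval -0.46 to 2.56, adjusted p 0.519) with p53+/+ cells. The former passed the test without p53+/+ INZ replicate 3 (adjusted p 0.032), and with only the 6 arrays compared (adjusted p 0.0118). It was 0.52 with each array's lower quartile in the fit (adjusted p 0.823), a covariate that cannot be told apart from INZ in p53-/- cells. The p53+/+ value was -0.18 without both arrays that stand apart (adjusted p 0.943).

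TYMS makes thymidylate from dUMP and is the target of fluorouracil. It read 12.83, 13.53 and 14.00 in p53+/+ DMSO cells and 13.94, 13.94 and 14.55 with INZ, and 13.78 to 14.11 and 13.96 to 14.35 in p53-/- cells with DMSO and INZ. The groups overlapped in both genotypes. Thus of the 5 genes for deoxynucleotides, RRM1, RRM2, RRM2B and TYMS had positive log2 differences with INZ in both genotypes (0.25 to 1.77) and DTYMK negative ones, though the sign of RRM2 in p53+/+ cells rested on the arrays that stand apart.

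**Figure D2:**
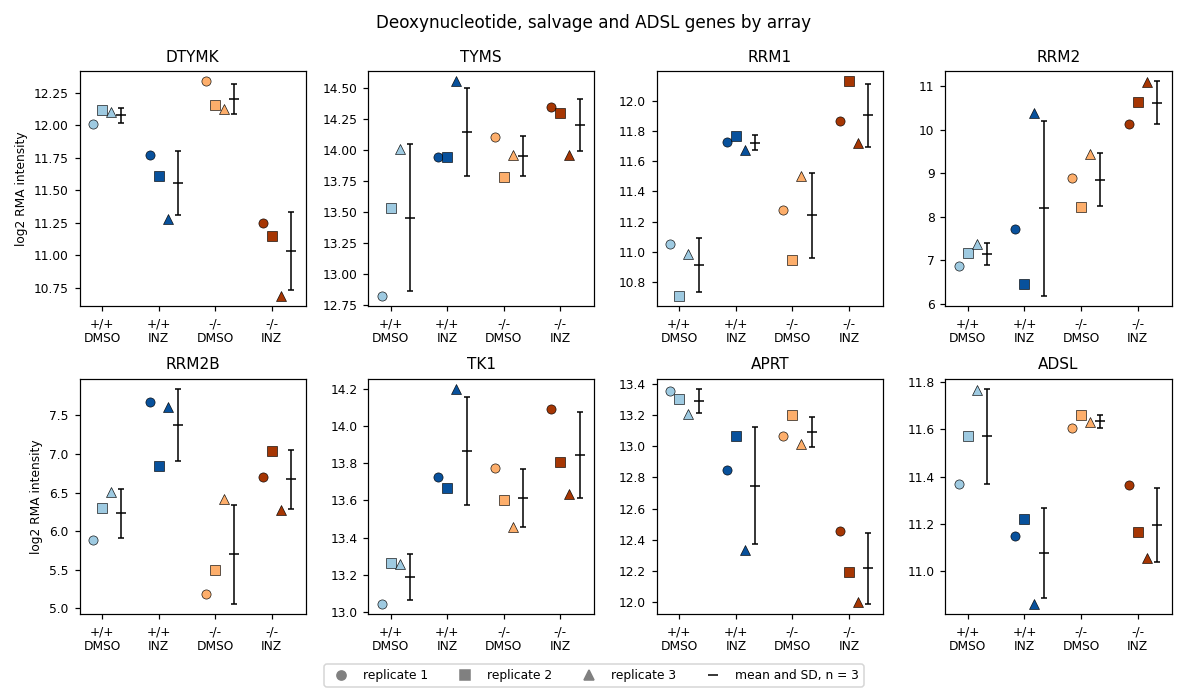
Log2 RMA intensity (y axis) on each of the 12 arrays, by group (x axis), for DTYMK, TYMS, RRM1, RRM2, RRM2B, TK1, APRT and ADSL, with each group's mean and SD (n = 3). For DTYMK, APRT and ADSL all INZ arrays lie below all DMSO arrays of the same genotype, for RRM1 all lie above, and RRM2 has 1 p53+/+ INZ array at 10.39.

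PRPP is supplied by PRPS1 and PRPS2. PRPS1 read 7.00, 8.25 and 8.79 in p53+/+ DMSO cells and 9.12, 9.17 and 9.67 with INZ. The p53-/- arrays gave 9.44, 8.96 and 8.59 with DMSO and 9.52, 10.13 and 10.03 with INZ. INZ arrays lay above DMSO arrays in both genotypes, by 1.30 (interval 0.43 to 2.18, adjusted p 0.169) and 0.90 (interval 0.02 to 1.77, adjusted p 0.353). The p53+/+ value passed the test when p53+/+ DMSO replicate 3 was left out (log2 fold change 1.69, adjusted p 0.0448). It was 0.80 without p53+/+ DMSO replicate 1, the array at 7.00 (adjusted p 0.452), 0.62 without both arrays that stand apart and 0.63 with the lower quartile in the fit, where the p53-/- value was 0.27. PRPS2, the paralogue, ranged from 8.93 to 10.12 over the 12 arrays, with log2 differences of -0.01 and 0.35.

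The ring of the purines is built by PPAT, which commits PRPP to the pathway, and then by GART, PFAS, PAICS, ADSL and ATIC, with formyl groups that MTHFD1 prepares. None of these 7 genes passed the test with INZ in either genotype. ADSL, which acts both before IMP and in the branch to AMP, had the smallest p of them in both genotypes. It read 11.37, 11.57 and 11.77 in p53+/+ DMSO cells and 11.15, 11.22 and 10.86 with INZ. Its p53-/- arrays gave 11.61, 11.66 and 11.63 with DMSO and 11.36, 11.17 and 11.05 with INZ. All INZ arrays were below all DMSO arrays, by small log2 differences of -0.49 (interval -1.02 to 0.03, adjusted p 0.377) and -0.44 (interval -0.96 to 0.08, adjusted p 0.469).

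PPAT and PAICS lie head to head on chromosome 4 and share the stretch between their start sites. It is shown because both genes can be read from it and their INZ values had opposite signs over all arrays. The 136 bases are from RefSeq, at chr4:56435616-56435751 of GRCh38.p14, plus strand, 5′ to 3′, with PPAT starting to the left and PAICS to the right and the letters GGGCGG in capitals.
PPAT-PAICS: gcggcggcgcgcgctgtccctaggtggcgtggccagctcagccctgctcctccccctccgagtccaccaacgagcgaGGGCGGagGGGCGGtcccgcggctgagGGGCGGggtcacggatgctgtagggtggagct
GGGCGG occurs 3 times on this strand. On either strand it was found in 70.5% of the members' windows and 45.0% of all windows. The 3 sites shown here count for the windows of both genes. PAICS, a bifunctional enzyme, read 6.89, 9.56 and 9.85 in p53+/+ DMSO cells and 9.77, 9.56 and 10.42 with INZ, and 9.87, 9.90 and 10.68 against 10.75, 11.45 and 11.33 in p53-/- cells. PPAT read 9.40, 9.43 and 9.29 in p53+/+ DMSO cells and 9.22, 9.47 and 8.51 with INZ, and 9.45, 9.40 and 9.77 against 9.22, 9.67 and 8.49 in p53-/- cells. PAICS was above its DMSO arrays in each p53-/- INZ array, whereas PPAT overlapped in both genotypes and was lowest on replicate 3 of each INZ group. The log2 differences were 1.15 and 1.03 for PAICS (adjusted p 0.398 and 0.493) and -0.30 and -0.41 for PPAT (adjusted p 0.716 and 0.652), and the difference between the genes was not tested. Without both arrays that stand apart the p53+/+ values were -0.04 for PAICS and -0.01 for PPAT.

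Of the other genes of this route, PFAS had log2 differences of 0.11 and 0.14 with INZ, ATIC of -0.32 and -0.29, and MTHFD1 of 0.16 and 0.15, in p53+/+ and p53-/- cells. GART, which carries several steps in one protein, read 5.73, 8.21 and 9.16 in p53+/+ DMSO cells, a range wider than any difference between its groups. Its other arrays lay between 7.90 and 9.24, so the 5.73 of p53+/+ DMSO replicate 1, an array that stands apart, was alone. PAICS (6.89), CAD (8.20) and PRPS1 (7.00) had their lowest value of all 12 arrays on that same array.

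In the branches from IMP, IMPDH2, the isoform of the rate-limiting step to GMP that prevails in dividing cells, read 13.92, 13.75 and 13.89 in p53+/+ DMSO cells and 13.25, 13.33 and 13.10 with INZ. The p53-/- readings were 13.17, 13.69 and 13.26 with DMSO and 13.07, 13.24 and 12.44 with INZ. The groups were apart in p53+/+ cells, by -0.63 on the log2 scale (interval -1.22 to -0.04, adjusted p 0.321), and overlapped in p53-/- cells. IMPDH1 ranged from 10.64 to 12.23 and GMPS, which completes GMP, from 10.68 to 11.46, with overlapping groups in both genotypes. ADSS2, the first step to AMP, had log2 differences of -0.11 and 0.00 with INZ.

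Of the pyrimidine genes, CAD carries out the opening steps, DHODH the step in the mitochondrion, UMPS the last steps to UMP, and CTPS1 and CTPS2 turn UTP into CTP. CAD read 8.20, 9.97 and 10.33 in p53+/+ DMSO cells and 10.31, 9.59 and 12.01 with INZ. On the p53-/- arrays it read 10.92, 10.45 and 10.46 with DMSO and 11.96, 11.35 and 12.96 with INZ. The p53-/- groups did not overlap, and the p53+/+ groups did, with both arrays that stand apart at the ends of the range. Its log2 differences were 1.14 (interval -0.20 to 2.47, adjusted p 0.429) and 1.48 (interval 0.14 to 2.82, adjusted p 0.312), the latter past the test with only the 6 arrays compared (adjusted p 0.0334) but 0.13 with the lower quartile in the fit (adjusted p 0.938). Without both arrays that stand apart, the p53+/+ value was -0.20 (adjusted p 0.932).

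DHODH, the enzyme blocked by leflunomide, read 9.63, 8.59 and 8.22 against 8.37, 8.39 and 7.18 in p53+/+ cells, with DMSO and INZ, and 8.51, 8.82 and 8.43 against 8.05, 7.92 and 7.55 in p53-/- cells. Only the p53-/- groups were apart, by -0.75 (interval -1.60 to 0.10, adjusted p 0.446). CTPS1 read 10.15, 10.36 and 10.51 in p53+/+ DMSO cells and 10.94, 10.67 and 10.74 with INZ, apart by 0.44 (interval -0.08 to 0.96, adjusted p 0.425), and 10.65 to 10.94 in all p53-/- arrays. UMPS (10.36 to 11.48) and CTPS2 (7.28 to 8.27) overlapped in both genotypes.

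In salvage, APRT recovers adenine. It read 13.36, 13.30 and 13.21 in p53+/+ DMSO cells and 12.85, 13.06 and 12.33 with INZ. On the p53-/- arrays it read 13.06, 13.20 and 13.02 with DMSO and 12.457, 12.194 and 12.002 with INZ. As for DTYMK, all INZ arrays were below all DMSO arrays and the p53-/- INZ arrays included the lowest. The log2 differences were -0.54 (interval -1.11 to 0.02, adjusted p 0.369) and -0.88 (interval -1.44 to -0.31, adjusted p 0.134). The latter passed the test in 3 of 24 alternatives, limma with a trend, array weights, and without the 2 arrays that stand apart, at an adjusted p down to 0.0394.

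TK1, the cytosolic thymidine kinase of S phase, read 13.05, 13.26 and 13.26 in p53+/+ DMSO cells and 13.73, 13.67 and 14.20 with INZ. Its p53-/- arrays gave 13.77, 13.60 and 13.46 with DMSO and 14.09, 13.81 and 13.64 with INZ. The p53+/+ groups were apart by 0.67 (interval 0.12 to 1.23, adjusted p 0.259), and all p53+/+ DMSO arrays lay below all p53-/- DMSO arrays. UCK2, a uridine and cytidine kinase, was apart in p53+/+ cells, at 12.45 to 12.59 with DMSO and 11.66 to 12.34 with INZ. HPRT1, which recovers hypoxanthine and guanine, DCK, the deoxycytidine kinase, and UCKL1, a relative of UCK2, overlapped in both genotypes and ranged from 7.86 to 9.15, 6.03 to 7.99 and 8.53 to 10.61.

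The kinases that pass phosphate between nucleotides had small INZ values, of -0.18 to 0.05 on the log2 scale. GUK1, guanylate kinase, stayed within 9.89 to 10.30 on all 12 arrays, although its INZ arrays in p53+/+ cells, at 9.92 to 9.95, lay just below the DMSO arrays at 9.98 to 10.28. CMPK1, which acts on UMP and CMP, had log2 differences of -0.03 and -0.18 with INZ. NME1 and NME2, the nucleoside diphosphate kinases A and B, had differences between -0.14 and 0.05. These neighbouring genes are closely alike in sequence, so their probes may read each other's RNA.

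In 25 of 33 members (75.8%) the log2 differences with INZ had the same sign in both genotypes, as in 75.9% of the features above the median feature. Without both arrays that stand apart 19 of 33 members (57.6%) did, since 12 changed sign in p53+/+ cells, among them RRM2, CAD, PAICS and GART. In p53+/+ cells the groups did not overlap for 5 members that were higher with INZ and 6 that were lower, against 7.39% and 8.51% of all features and 11.1% and 9.95% of those above the median feature. Among p53-/- cells they did not overlap for 5 higher and 4 lower, against 13.3% and 12.5% of all features and 19.4% and 16.8% of those above the median one. In both genotypes at once, PRPS1 and RRM1 were higher (6.06% of members, against 3.04% of all features) and ADSL, APRT and DTYMK lower (9.09%, against 3.34%). For features above the median feature, where all members lie, this joint share was not computed. In each genotype alone their share was higher than that of all features. No sample is shared between these comparisons. Across the 33 members both sets of log2 differences had a Pearson r of 0.84 (0.36 without both arrays that stand apart), and across features above the median one of 0.67, as a description, since genes measured on the same arrays are not independent. For the difference between the genotypes in the INZ effect, limma called 0 of 33 members, where 0.0178% of features were called, and 0 members had an unadjusted p under 0.05, against 4.71% of features. The widest interval among the members was that of RRM2, from -2.85 to 1.42, so a difference of several fold between the genotypes would not have been detectable for it.

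Between genotypes, limma called 0 of 33 members with DMSO, where 0.211% of features passed, and 0 of 33 with INZ, where 0.484% did. At an unadjusted p under 0.05 there were 7 and 4 members, against 12% and 10.3% of features. A fit of only the features above the median feature had 3415 and 3246 of 22516. In both treatments 22 of 33 members (66.7%) read lower in p53+/+ cells. With DMSO and INZ, 48.4% and 47.9% of all features did, and 56.6% and 52.6% of those above the median feature. The members' median log2 differences of p53+/+ minus p53-/- were -0.17 with DMSO and -0.09 with INZ, and that of all features was 0.02 in both. Features above the median feature had medians of -0.09 and -0.04. The median level of the members on single arrays had an SD of 0.26 between replicates. That is a spread of levels and not of a median difference, so it does not judge the lower median of the members, which was not tested. With DMSO, IMPDH2, CTPS2, APRT and NME1 were higher in p53+/+ cells without overlap and PFAS, PAICS, CAD, CTPS1, RRM2, DTYMK and TK1 lower, against 8.77% and 8.87% of features in each direction and 10.1% and 13.9% of those above the median feature. With INZ, DTYMK was higher and PFAS, PAICS, ADSS2 and GMPS lower, against 8.21% and 7.39% of features and 9.13% and 9.93% of those above the median one.

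RRM2 had the largest genotype differences, -1.71 with DMSO (interval -3.22 to -0.20, adjusted p 0.369) and -2.43 with INZ (interval -3.94 to -0.91, adjusted p 0.212). Without p53+/+ INZ replicate 3, the latter was -3.52 and passed the test, at an adjusted p of 0.00256. It was -1.56 without p53+/+ INZ replicate 2 (adjusted p 0.734) and -1.39 with the lower quartile in the fit (adjusted p 0.527), where the DMSO difference was -0.59. PFAS, which adds an amino group to the growing purine, read 7.91, 8.75 and 9.10 in p53+/+ DMSO cells and 8.22, 8.98 and 8.89 with INZ, against 9.53, 9.43 and 9.19 and 9.59, 9.40 and 9.58 in p53-/- cells. Every p53+/+ array was thus below every p53-/- array, by -0.79 with DMSO (interval -1.49 to -0.10, adjusted p 0.368) and -0.82 with INZ (interval -1.52 to -0.13, adjusted p 0.397), and PFAS passed the test in none of the alternatives. The DMSO difference was -0.46 without p53+/+ DMSO replicate 1, the array at 7.91 (adjusted p 0.785), and with the lower quartile in the fit both were smaller, at -0.43 and -0.49. ADSS2 read 5.23, 6.11 and 7.10 in p53+/+ DMSO cells and 5.36, 5.87 and 6.88 with INZ, against 7.91, 6.86 and 7.15 and 7.19, 7.61 and 7.11 in p53-/- cells, with differences of -1.16 (adjusted p 0.368) and -1.27 (adjusted p 0.36). The former was -0.70 without p53+/+ DMSO replicate 1, and with the lower quartile in the fit they were -0.39 and -0.56. CTPS2 read 8.27, 8.27 and 7.92 in p53+/+ DMSO cells and 7.28, 7.52 and 7.71 in p53-/- DMSO cells, a difference of 0.65 (interval 0.07 to 1.22, adjusted p 0.371) that was -0.02 with INZ.

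**Figure D3:**
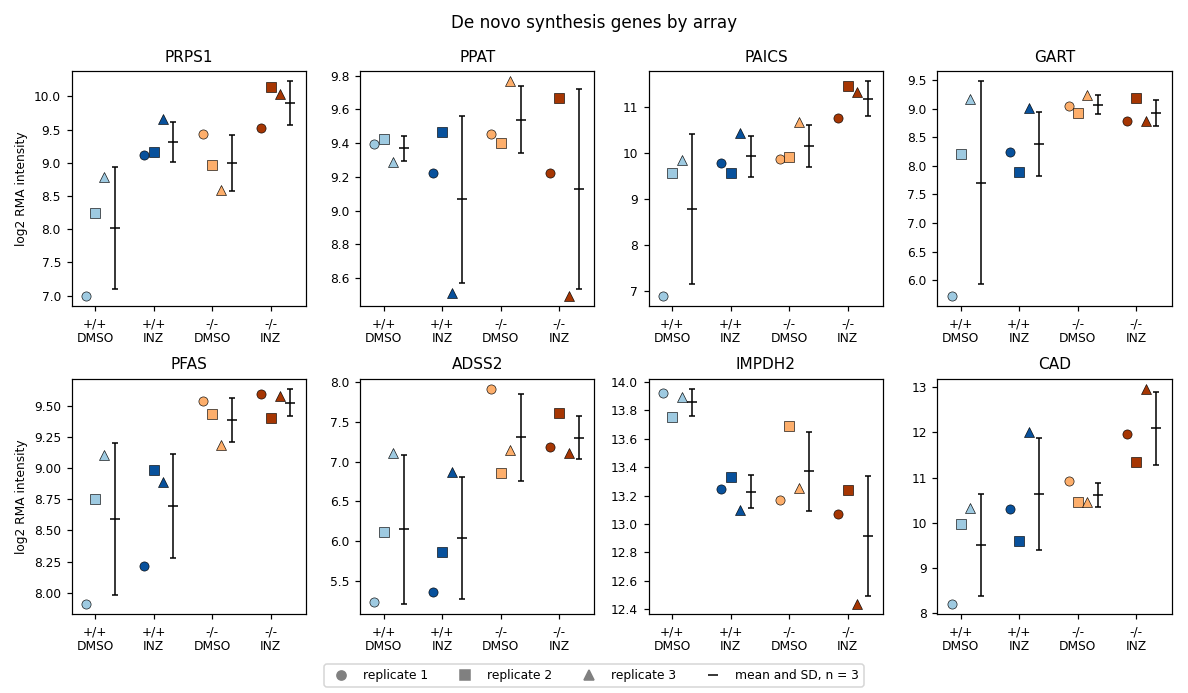
Log2 RMA intensity (y axis) on each of the 12 arrays, by group (x axis), for 8 genes of de novo synthesis, with each group's mean and SD (n = 3). PAICS, GART, PRPS1 and CAD have their lowest value on p53+/+ DMSO replicate 1, and PFAS is lower on all p53+/+ arrays than on all p53-/- arrays.

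Both arrays that stand apart bear on these counts. Without them, DTYMK, APRT, CAD and RRM2 passed the test for INZ in p53-/- cells and ADSS2, CAD, PAICS and RRM2 for the genotypes with INZ, where 5.61% and 9.54% of all features passed. With array weights, which keep all 12 arrays, APRT, DTYMK and RRM2B passed for INZ in p53-/- cells and ADSS2, CAD and RRM2 for the genotypes with INZ, where 6.65% and 5.48% of all features did. Without both arrays, the genotype differences with INZ were -3.52 for RRM2 (adjusted p 0.00155), -2.14 for CAD (adjusted p 0.00949), -1.51 for PAICS (adjusted p 0.0148), -1.69 for ADSS2 (adjusted p 0.0179) and -0.85 for GART (adjusted p 0.113). The INZ difference of GART in p53+/+ cells went from 0.68 to -0.62. Why these arrays deviate was not tested.

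Beyond the 33 members, 80 of 82 listed genes of nucleotide metabolism had a feature. With INZ, 0 of 80 passed in p53+/+ cells and 1 of 80 in p53-/- cells (1.25%), near the shares of all features given above. At an unadjusted p under 0.05, limma counted 13 (16.2%) and 15 (18.8%), against 14.4% and 13.6% of all features. The gene that fell was FPGS, which adds glutamates to folates and so keeps them in the cell. FPGS read 10.74, 10.79 and 10.56 in p53-/- DMSO cells and 9.76, 9.13 and 9.46 with INZ, a fall of 1.25 on the log2 scale (interval -1.83 to -0.66, adjusted p 0.0376). In p53+/+ cells it read 11.05, 11.02 and 10.73 with DMSO and 9.71, 10.36 and 10.19 with INZ, a difference of -0.85 (interval -1.43 to -0.26, adjusted p 0.181). All INZ arrays were lower in both genotypes, and the difference between the effects, 0.40 (interval -0.43 to 1.23), missed the test. The FPGS call was lost in 9 of 24 alternatives, among them the replicate number as a block (adjusted p 0.0537).

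ADK, adenosine kinase, read 9.42, 9.49 and 9.44 against 8.36, 8.87 and 8.62 in p53+/+ cells and 9.71, 9.50 and 9.82 against 8.92, 8.93 and 8.72 in p53-/- cells. These INZ arrays were lower by the same -0.83 in both genotypes (adjusted p 0.145 and 0.127). UPP1, which splits uridine, was lower with INZ in both genotypes, by -0.82 and -1.02 (adjusted p 0.198 and 0.0886), and lower in p53+/+ than in p53-/- cells on every array, 7.84 to 8.79 against 8.95 to 10.55. ALDH1L1, which removes formyl groups from folate, was higher in p53+/+ than in p53-/- cells with INZ, at 7.36, 7.19 and 6.98 against 5.69, 5.48 and 5.06, by 1.76 (interval 1.04 to 2.49, adjusted p 0.0343). Its mean lies below the median feature, and the call was lost in 10 of 23 alternatives.

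Among the other kinases and transporters, NME3 had a log2 difference of -1.26 with INZ in p53-/- cells (interval -1.95 to -0.57, adjusted p 0.0724), NME7 of -0.89 and NT5C, a nucleotidase, of -1.001 (adjusted p 0.283 and 0.186). Of the 24 alternatives, NME3 passed the test in 7 (adjusted p down to 0.00929), NT5C in 3 (down to 0.0357) and NME7 in 0. SLC29A2, an equilibrative nucleoside transporter, had -0.92 in p53+/+ cells (adjusted p 0.162), and SLC28A2, a concentrative one that read below the median feature, -0.57. GDA, guanine deaminase, had 1.39 in p53+/+ cells (interval 0.44 to 2.33, adjusted p 0.174). Of the transcription factors known to act on nucleotide genes, ATF4 read 13.28, 12.94 and 13.17 in p53-/- DMSO cells and 12.02, 11.59 and 12.09 with INZ, a difference of -1.23 (interval -2.16 to -0.30, adjusted p 0.209), and 0.36 in p53+/+ cells. TFDP1, the partner of E2F factors, had 1.24 and 1.04, MYC 0.31 and -0.36, and E2F1 1.06 and 0.92, and none passed. The p53-/- value of ATF4 passed in 4 of 24 alternatives, among them the lower quartile in the fit (-2.08, adjusted p 0.00451). With that quartile the p53-/- values of NME3, NME7 and NT5C were -0.77, -0.27 and -0.51. ATF4 has 2 features, and with their mean its p53-/- value was smaller, at -0.73 (adjusted p 0.495). Without both arrays that stand apart the p53+/+ values of TFDP1 and GDA were 0.14 and 0.77.

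**Figure D4:**
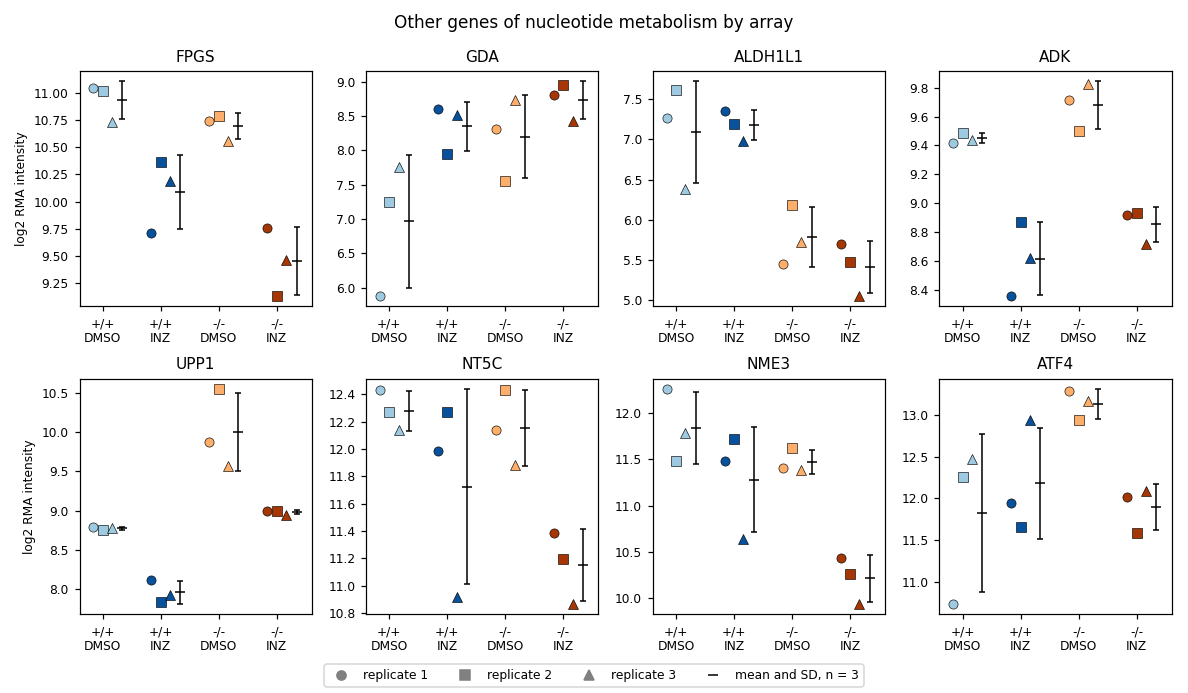
Log2 RMA intensity (y axis) on each of the 12 arrays, by group (x axis), for 8 other genes of nucleotide metabolism, with each group's mean and SD (n = 3). FPGS, ADK and UPP1 are lower on all INZ arrays than on all DMSO arrays of the same genotype.

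The promoters of the members were searched for the letters that MYC, E2F and ATF4 are known to prefer, over 250 bases before to 50 after each start site in RefSeq, which had entries for 30 of 33 members. CACGTG, the E-box of MYC, was found in 18.2% of the members' windows and 7.26% of all windows, for ATIC, DCK, DHODH, MTHFD1, NME1, PAICS, PPAT and UCKL1. The match of PPAT and that of PAICS are the same bases, so 1 site is counted for both genes. The E2F letters TTTCCCGC were found for PRPS2 and TYMS (4.55% of the members' windows, 1.63% of all) and TTTGGCGC for DCK and GART (4.55% and 0.652%). The ATF4 letters TGATGCAA were in none of the members' windows, against 0.866% of all. The stretches of DHODH and DCK are shown because both hold an E-box and their INZ values lay on opposite sides of zero. They are at chr16:72008559-72008618 and chr4:70993507-70993566 of GRCh38.p14, plus strand, 5′ to 3′, with CACGTG in capitals.
DHODH: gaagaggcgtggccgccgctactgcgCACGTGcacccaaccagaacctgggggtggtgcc
DCK: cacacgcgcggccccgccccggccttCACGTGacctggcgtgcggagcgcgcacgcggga
With INZ, DHODH had log2 differences of -0.83 and -0.75 in p53+/+ and p53-/- cells and DCK of 0.71 and 0.58, and none of these passed the test. As this pair was picked by its signs, it does not describe the 8 genes with an E-box. Whether the motif goes with the INZ values was not tested.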

How the data were processed

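RNA from the 4 groups was measured on 12 one-colour NimbleGen arrays. The authors deposited 1 table of RMA values, an intensity on a linear scale, and no RMA version, annotation or genome build is given in the sources used here. Intensities were log2-transformed without a pseudocount. Names were found for 18866 of 45033 features, giving 17185 genes. Each comparison was tested in limma 3.58.1 (R 4.3.3) over all 12 arrays with 1 mean per group, no covariate and Benjamini-Hochberg adjustment over 45033 features. The members, lists, tests and alternatives were chosen with earlier results of these data known, and the motifs GGGCGG and CCAAT after the promoters were seen. Values by array are given for members past the threshold, the 4 with the smallest p in each comparison, RRM2B and 1 member per role, and for other genes those past the threshold and the 2 of each list with the smallest p. GART, NME and other genes given beyond that, such as TYMS, PAICS, PPAT, DHODH, MYC and E2F1, were named after their values were seen. As 24 alternatives, the fit was repeated with quantile normalization, array centring, a mean-variance trend, without dim features, with a replicate block, without each array in turn, on only the groups compared, without both deviating arrays, with array weights, with the lower quartile as covariate, with the mean of a gene's features, with a pseudocount of 16 and at an adjusted p under 0.10. The pipeline was tested on simulated data. The number of arrays limits the precision, and p-values measure the spread between these samples. The table holds no detection calls. Promoters came from RefSeq on GRCh38.p14, which need not be the build of the array. The plots were made in Python 3.11.15 with matplotlib 3.10.9. Some named genes of the lists are not reported here.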

Additional observations from a re-analysis of the deposited data

How the results depend on the processing

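The 46 named results, each 1 gene in 1 comparison, were kept because limma gave them an unadjusted p under 0.05 in the main fit. None changed direction in the 24 alternatives, which this choice favours. Some alternatives, such as the looser threshold or leaving out an array of another group, cannot alter a log2 fold change at all. Outside these results, 12 of 33 members changed sign for INZ in p53+/+ cells without both deviating arrays, and 13 with the quartile covariate. RRM2 and CAD were among them both times. Of the 46 results, the 3 called (DTYMK, FPGS and ALDH1L1) each lost the call in some alternative, and 17 others gained one. The members' median log2 fold change was -0.11 to 0.08 for INZ in p53+/+ cells and -0.04 to 0.20 in p53-/- cells. It moved from its main value by less than 0.26, the SD between replicates of the members' median level on single arrays. That SD is a spread of levels, not of a median fold change. Members changed by INZ in p53+/+ cells numbered 0 to 1 with 1 array left out. In p53-/- cells the 1 member became 2 with a trend, 3 with only the groups compared, 4 without both deviating arrays, 3 with array weights, 0 with the quartile covariate, and 0 to 2 with 1 array left out. Of all features, 6.01% passed for INZ in p53-/- cells with only the groups compared, 5.61% without both deviating arrays and 6.65% with array weights. For the genotypes with INZ, 0 members became 4 without both arrays, 3 with weights and 0 to 1 with 1 array left out. There 9.54% of all features passed without both arrays and 5.48% with weights.

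Other pathway genes changed numbered 0 to 1 with 1 array left out for INZ in p53+/+ cells. For INZ in p53-/- cells 1 became 2 with a trend or the dim filter, 0 with the replicate block, 7 with only the groups compared, 8 without both arrays, 9 with weights, 3 with the covariate or at 0.10, and 0 to 2 with 1 array left out. For the genotypes they ranged from 0 to 3 with 1 array left out, with DMSO and with INZ, where 1 became 0 with a trend, the dim filter, quantile normalization or the covariate, 8 without both arrays and 4 with weights. The shares of all features that passed with only the groups compared, without both arrays and with weights are those given for the members.

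All features changed by INZ in p53+/+ cells numbered 388, and 9 with only the groups compared, 166 without both arrays, 129 with the covariate, 786 at 0.10 and 81 to 1185 with 1 array left out. In p53-/- cells 666 became 2705, 2525, 2996 with weights, 1326 at 0.10 and 229 to 1313. For the interaction 8 became 15 with a trend, 30 with weights, 22 with the covariate, 13 with a pseudocount of 16 and 14 at 0.10. For the genotypes with DMSO 95 became 6 with only the groups compared, 190 with weights, 34 with the covariate, 154 at 0.10 and 17 to 525, and with INZ 218 became 129, 4298 without both arrays, 2469 with weights, 372 at 0.10 and 59 to 1652. The causes were not tested.

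Arrays with the same replicate number deviated from their group means at correlations of -0.19 to 0.33 (18 pairs, median 0.01). For arrays with different numbers these were -0.36 to 0.28 (36 pairs, median -0.02). The highest, 0.33 and 0.31, joined p53+/+ INZ replicate 3, an array that stands apart, with replicate 3 of p53+/+ DMSO and of p53-/- INZ. Whether arrays of the same number share a batch was not tested. With the replicate number as a block, DTYMK kept its call (adjusted p 0.0417), FPGS lost it (adjusted p 0.0537), and the other pathway genes changed by INZ in p53-/- cells went from 1 to 0.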

Other observations

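The members differed widely in how well replicates repeated. The SD within groups, pooled over the 4 groups, was lowest for GUK1 (0.15), CTPS1 (0.15), ADSL (0.16) and GMPS (0.17) and highest for PAICS (0.90), GART (0.94), CAD (0.94) and RRM2 (1.08) on the log2 scale. The median member had 0.37, against 0.44 for 9307 named genes above the median feature. A doubling, a log2 difference of 1, lies outside the spread of GUK1 and within that of RRM2.

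4 members had several features. The 2 features of GART differed, with log2 differences for INZ in p53+/+ cells of 0.68 and 1.21, whereas p53-/- cells gave -0.15 and 0.76, so the sign for GART in p53-/- cells depends on the feature. Those of IMPDH1 (-0.13 and 0.01, 0.32 and 0.41), NME1 (0.05 and 0.21, -0.10 and -0.07) and the 3 features of NME2 (-0.22 to -0.14 and -0.19 to 0.04) lay close together.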
